A study of Homo sapiens with 9 samples.

Results

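In LNCaP cells, 103 protein-coding genes had about the same RNA level in control and UGT2B28-knockdown cells and another level once UGT2B28 was overexpressed in the knockdown cells. Of these, 63 were raised and 40 were lowered. They were chosen on CPM, each gene's count scaled to a library total of 1000000 over gene rows. The ratio of the knockdown mean to the control mean lay between 0.8 and the inverse of 0.8, and the rescue mean lay at least 1.5-fold above or below both. No rescue library overlapped a control or knockdown library, and the highest group mean was at least 3 CPM. UGT2B28 itself, histone and zinc finger (ZNF) genes and 4 further named genes were left out, which removed 1 gene that met the other conditions, ZNF611. The 103 genes are 0.518% of the 19871 protein-coding genes among 60880 gene rows, and 1.53% of the 6719 genes that met the floor and the window. Since the levels of all 9 libraries chose the members, their differences between groups are given as a description with no test.

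The study compared 3 groups of 3 RNA-seq libraries at 24 h. Control cells, titled NT, carry no named change, and their selection is not stated. Knockdown cells came from 1 line, KD4, under puromycin at 3 µg/mL. Rescue cells combined the same knockdown with UGT2B28 overexpression and were kept under G418 at 1 mg/mL. Every group was LNCaP, an established androgen-responsive human prostate cancer line, grown in serum-containing RPMI. The construct, the antibiotic and the history of the selected line changed together between knockdown and rescue, so their shares in a difference cannot be told apart. Whether replicates were separate cultures is not given in the labels. The p-values below thus speak of the scatter among these libraries alone, part or all of which could be technical.

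UGT2B28 belongs to the UDP-glucuronosyltransferases, membrane enzymes of the endoplasmic reticulum that join glucuronic acid to small lipophilic molecules. In the prostate this enzyme family inactivates androgens, the steroid hormones on which luminal prostate cells and LNCaP depend. A gene that stays level on knockdown and moves on overexpression is a pattern apart from that of a reversed knockdown change.

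UGT2B28 counts were 25, 4 and 10 (control), 17, 8 and 1 (knockdown) and 1124, 1554 and 1857 (rescue). Overexpression was thus present in each rescue library, whereas loss in knockdown was not detectable at this level (edgeR log2 difference −0.60, SE 0.62, adjusted p = 0.518). UGT2B genes are close copies of each other, which makes low counts of one of them uncertain. Gene counts were 20300744 to 26459528 per library. All 10 luminal prostate markers were detected, and their summed level was 4432 to 4562 CPM (control), 9173 to 9564 (knockdown) and 9323 to 10270 (rescue). The summed immune markers stayed between 2.17 and 3.63 CPM, with 2 of 6 at 0 in each library. In a bulk sample, fewer cells of a kind and less RNA per cell cannot be told apart.

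The rule found 103 genes with rescue apart. With the roles exchanged, 823 genes had control apart from a matched knockdown and rescue pair, and 54 had knockdown apart. Among the raised genes the smaller of the 2 fold changes ranged from 1.503 to 3.59 with a median of 1.64, and 15 reached 2-fold. Among the lowered genes it ranged from 1.505 to 4.09 with a median of 1.69, and 4 reached 2-fold. Most members therefore lay close to the threshold. The highest group mean was under 10 CPM in 16 raised and 20 lowered genes.

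**Figure D1:**
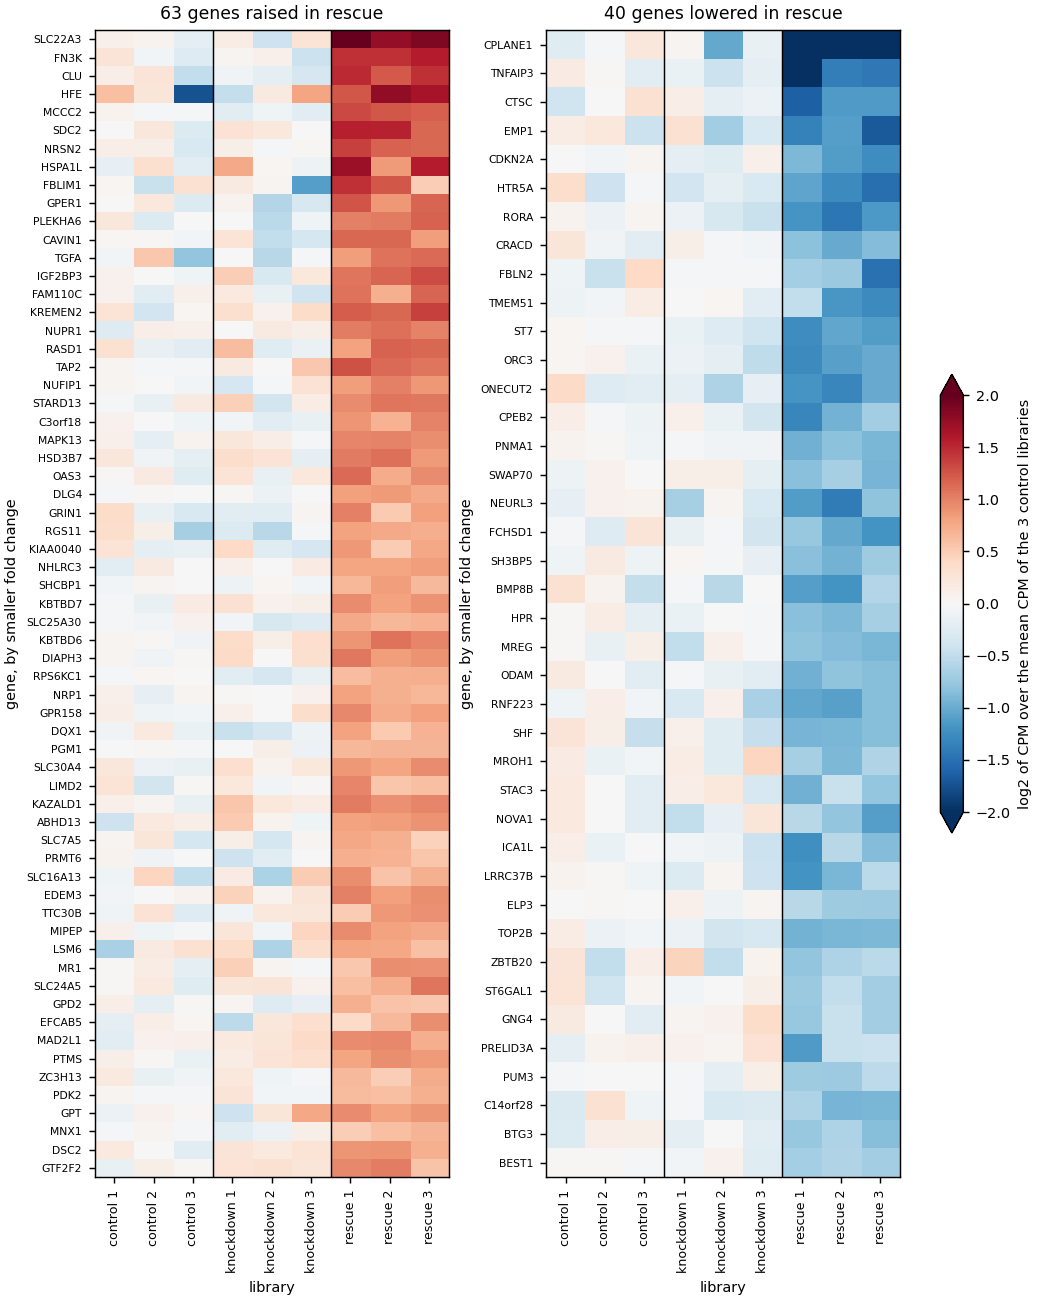
Each row is 1 member and each column 1 library. Colour gives the log2 ratio of the library's CPM to the mean of the 3 control libraries (red higher, blue lower, saturated at 2 and −2), with 63 raised genes on the left and 40 lowered genes on the right. The control and knockdown columns are mostly pale. Single cells of low-count genes are deeper, for example HFE in control replicate 3, FBLIM1 in knockdown replicate 3 and CPLANE1 in knockdown replicate 2. The 3 rescue columns lie to 1 side of all others in each row, as the choice of members requires.

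The separation between libraries was narrow in part of the list. For raised genes, the lowest rescue library was 1.02 to 2.79 times the highest of the 6 other libraries, with a median of 1.38. For lowered genes, the lowest of the 6 other libraries was 1.02 to 2.03 times the highest rescue library, with a median of 1.30. In 6 raised genes (HSPA1L, KIAA0040, SLC16A13, MR1, EFCAB5 and GPT) and 8 lowered genes (NEURL3, BMP8B, STAC3, NOVA1, ICA1L, LRRC37B, ZBTB20 and ST6GAL1) this ratio was under 1.1.

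All 63 raised and 40 lowered genes passed the low-count filter of the edgeR fit to 18389 genes. In rescue against knockdown, 57 raised genes were called higher (Benjamini-Hochberg adjusted p under 0.05), where 5.2% of all tested genes were, and 35 lowered genes were called lower, against 4.88%. In rescue against control, 62 raised genes were called higher and 38 lowered genes lower, against 19.0% and 18.8% of all genes. These contrasts chose the members, so the counts only describe them. In knockdown against control, 8 raised genes were called higher (16.5% of all genes) and 1 lowered gene lower (15.6%). They were KBTBD6, DIAPH3, SLC30A4, KAZALD1, EDEM3, MAD2L1, PTMS and DSC2, and the lowered TOP2B. For these 9 genes the words "changed only by overexpression" are too strong, because a smaller shift in the same direction was already called in knockdown. Such a lean was not confined to them. The knockdown mean lay above the control mean in 40 raised genes and below it in 23. Among lowered genes it lay below in 31 and above in 9. Some uncalled genes leaned as far, such as HSPA1L (log2 difference 0.33, SE 0.26) and GTF2F2 (0.31, SE 0.13). Called against both groups, and not between knockdown and control, were 49 raised and 34 lowered genes, against 1.78% and 1.84% of all genes. This pattern is nearly the one the rule asked for, so these counts too only describe the members. Over all genes, 1854 (10.1%) were called in rescue against knockdown, 957 of them higher and 897 lower, 6946 (37.8%) in rescue against control and 5899 (32.1%) in knockdown against control. The total for rescue against knockdown was 1196 without rescue replicate 1. The lower calls numbered 558 without rescue replicate 1, 580 without rescue replicate 2, 559 without rescue replicate 3 and 547 without knockdown replicate 2.

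The raised gene with the largest smaller fold was SLC22A3, the organic cation transporter OCT3 that carries monoamines and metformin. It measured 10.8, 10.6 and 8.85 CPM in the control, 11.1, 7.58 and 12.2 in the knockdown and 40.3, 34.2 and 36.6 in the rescue libraries. The rescue libraries were high and close together. The log2 difference was 1.83 (SE 0.14) against knockdown and 1.89 (SE 0.14) against control. Further down stood SLC30A4 (rank 41 of 63 by smaller fold), a zinc exporter into vesicles. SLC30A4 measured 148, 117 and 114 CPM in the control, 159, 133 and 146 in the knockdown and 229.9, 219 and 243 in the rescue libraries. Its knockdown libraries already lay somewhat above 2 of the 3 control libraries, and the rescue levels were 1.58-fold against knockdown and 1.83-fold against control higher. SLC7A5, the large neutral amino acid transporter LAT1, had low counts, with 2.65, 3.03 and 2.01 CPM in the control, 2.79, 2.01 and 2.67 in the knockdown and 4.38, 4.21 and 3.52 in the rescue libraries. Its rescue libraries were higher by 1.62-fold against knockdown and 1.58-fold against control. Other raised carriers were SLC25A30 of the mitochondrial carrier family (1.63-fold), SLC16A13 of the monocarboxylate family (1.57-fold) and the cation exchanger SLC24A5 (1.53-fold), each by its smaller fold.

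The list of solute carriers for amino acids, sugars and metals held 53 further tested genes. In rescue against knockdown, 6 of them rose and 4 fell, with a median log2 difference of 0.05 beside −0.0048 over all genes tested. DESeq2 called 3 higher and 3 lower. Against control, 17 of the 53 rose and 18 fell (edgeR). For this and each later list, 19.0% of all genes rose and 18.8% fell against control. Against knockdown these shares of all genes were 5.2% and 4.88%. SLC16A1, the monocarboxylate transporter MCT1, fell (log2 difference -0.86, SE 0.07, adjusted p = 1.75e-09). SLC7A1, a cationic amino acid transporter, rose (log2 difference 0.47, SE 0.08, adjusted p = 0.00011), as did the choline transporter-like SLC44A4 (log2 difference 0.46, SE 0.07, adjusted p = 4.09e-05). SLC3A2, the heavy chain that pairs with SLC7A5, fell against knockdown (log2 difference -0.37, SE 0.08, adjusted p = 0.00142) but was higher against control (log2 difference 0.20, SE 0.08, adjusted p = 0.0381), with 264 ± 1.64 CPM (control), 383 ± 24.7 (knockdown) and 301 ± 21.7 (rescue). The call against control was lost with DESeq2 (adjusted p = 0.055) and without any 1 control library, rescue replicate 1 or rescue replicate 2 (adjusted p from 0.0575 to 0.256).

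Metabolic enzymes followed. FN3K, the fructosamine 3-kinase that removes sugars from glycated proteins, measured 10.8, 8.704 and 7.57 CPM in the control, 9.33, 9.71 and 6.71 in the knockdown and 24.7, 24.8 and 26.8 in the rescue libraries. The rescue libraries differed little among themselves and were 2.96-fold against knockdown and 2.82-fold against control higher. Its paralogue FN3KRP, a gene looked up after the values of FN3K were seen, was not called (log2 difference 0.03, SE 0.11, adjusted p = 0.921). MCCC2, the beta subunit of the mitochondrial 3-methylcrotonyl-CoA carboxylase of leucine breakdown, measured 262, 247 and 242 CPM in the control, 216, 237 and 216 in the knockdown and 626, 594 and 574 in the rescue libraries. The highest control library was 262 CPM and the lowest rescue library 574 CPM, and the rescue mean was 2.68-fold against knockdown and 2.39-fold against control higher. The alpha subunit gene MCCC1, also looked up afterwards, fell: 44.5 ± 0.909 CPM (control), 39.2 ± 2.61 (knockdown) and 29.6 ± 0.594 (rescue) (log2 difference -0.43, SE 0.09, adjusted p = 0.00231). Of the 2 subunit genes, one was thus higher and the other lower in rescue.

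Further raised enzyme genes of central metabolism were PGM1, which interconverts glucose phosphates (90.5 ± 1.55 CPM (control), 90.9 ± 7.32 (knockdown) and 144 ± 1.29 (rescue)), and GPD2, the mitochondrial glycerol phosphate dehydrogenase (33.98 ± 3.84 CPM (control), 31.4 ± 3.46 (knockdown) and 51.96 ± 3.43 (rescue)). PDK2, an inhibitory kinase of pyruvate dehydrogenase, was higher by 1.51-fold. The alanine aminotransferase gene GPT was higher by 1.51-fold, although knockdown replicate 3 (12.1 CPM) nearly reached the lowest rescue library (12.3 CPM). HSD3B7, a bile acid synthesis enzyme, was higher by 1.79-fold. MIPEP, a mitochondrial peptidase, was higher by 1.54-fold.

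**Figure D2:**
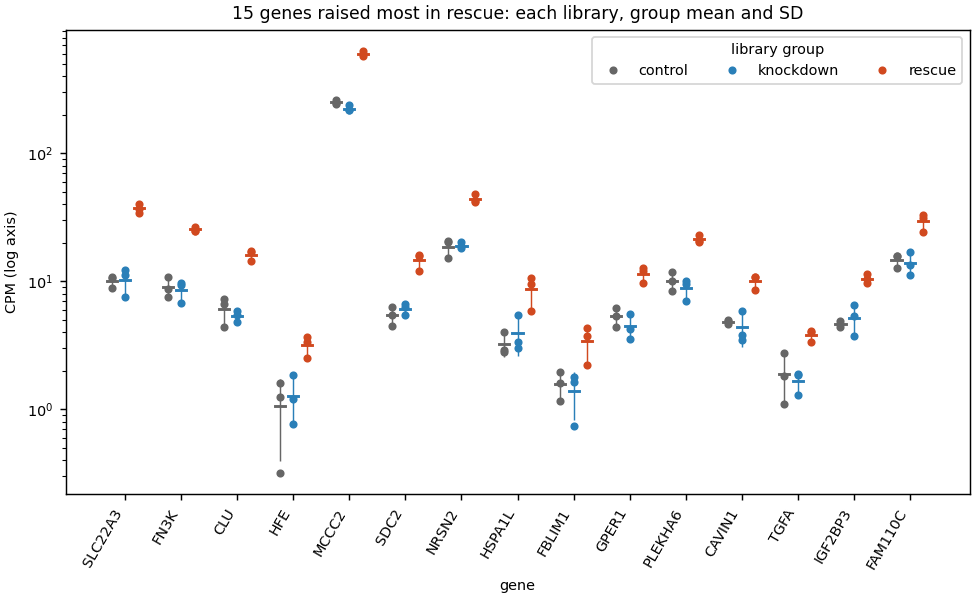
Points are the CPM of single libraries on a log axis for the 15 raised genes with the largest smaller fold, horizontal marks are means of 3 libraries and vertical lines are 1 SD. All rescue points lie above the control and knockdown points of the same gene, most widely for SLC22A3, FN3K and MCCC2, and narrowly for FBLIM1 and HSPA1L.

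CLU, the secreted chaperone clusterin, measured 6.69, 7.31 and 4.38 CPM in the control, 5.85, 5.42 and 4.83 in the knockdown and 17.1, 14.4 and 16.9 in the rescue libraries. Its lowest rescue library was about 1.97 times the highest other library, and the fold was 3.01-fold against knockdown and 2.64-fold against control. SDC2, the heparan sulfate proteoglycan syndecan-2, measured 5.46, 6.33 and 4.47 CPM in the control, 6.66, 6.298 and 5.43 in the knockdown and 15.9, 15.8 and 11.98 in the rescue libraries. One rescue library was lower than its fellows but still clear of the others, and the mean was 2.38-fold against knockdown and 2.69-fold against control higher. CAVIN1, a coat protein of caveolae, measured 4.96, 4.93 and 4.65 CPM in the control, 5.89, 3.45 and 3.82 in the knockdown and 10.7, 10.7 and 8.62 in the rescue libraries. Its rescue mean was higher by 2.29-fold against knockdown and 2.07-fold against control.

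TGFA, a ligand of the EGF receptor, had low counts with 1.81, 2.75 and 1.09 CPM in the control, 1.87, 1.28 and 1.84 in the knockdown and 3.35, 4.01 and 4.12 in the rescue libraries. The lowest rescue library had 68 counts and the highest control library 59, so the fold of 2.297-fold against knockdown and 2.03-fold against control rests on few reads. The other tested growth factor and receptor genes numbered 26, of which 4 rose and 2 fell in rescue against knockdown (median log2 difference 0.13). Among them IGFBP3, which binds insulin-like growth factors, fell (log2 difference -1.19, SE 0.12, adjusted p = 3.85e-08), and the receptor FGFR1 rose (log2 difference 0.87, SE 0.11, adjusted p = 5.05e-06), whereas FGFR1 fell against control (log2 difference -0.36, SE 0.11, adjusted p = 0.0107). EGFR, the receptor of TGFA, was not called (log2 difference 0.11, SE 0.10, adjusted p = 0.573).

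NRP1, a co-receptor for class 3 semaphorins and VEGF, measured 29.03, 24.2 and 28.4 CPM in the control, 27.8, 27.2 and 28.9 in the knockdown and 47.4, 44.3 and 43.1 in the rescue libraries. The groups of control and knockdown libraries coincided and the rescue mean was 1.61-fold against knockdown and 1.65-fold against control higher. Of 37 other ephrin, semaphorin and guidance genes, 2 rose and 10 fell (median log2 difference −0.17). SEMA3F, a ligand of neuropilins, rose (log2 difference 0.45, SE 0.09, adjusted p = 0.00106). The Eph receptors EPHA3 (log2 difference -3.23, SE 0.53, adjusted p = 0.000119) and EPHA7 (log2 difference -2.27, SE 0.43, adjusted p = 0.00072) fell. NRP1 was on the side with fewer calls. The 2 genes that rose were near the share over all genes (5.2%), and the 10 that fell were above theirs (4.88%).

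Receptors and signal regulators came next. GPER1, a membrane receptor for oestrogens, measured 5.38, 6.19 and 4.42 CPM in the control, 5.58, 3.57 and 4.28 in the knockdown and 12.7, 9.76 and 11.98 in the rescue libraries. The rescue libraries were all high, by 2.57-fold against knockdown and 2.15-fold against control. RGS11, which speeds the shut-off of G proteins, measured 3.69, 3.12 and 1.82 CPM in the control, 2.37, 1.97 and 2.804 in the knockdown and 5.02, 4.88 and 4.76 in the rescue libraries. Control replicate 1 was its highest other library, and the smaller fold was 1.699-fold. GPR158, an orphan receptor related to metabotropic glutamate receptors, measured 50.8, 43.7 and 44.6 CPM in the control, 49.6, 46.2 and 59.4 in the knockdown and 90.1, 77.6 and 81.6 in the rescue libraries. It was higher by 1.61-fold against knockdown and 1.79-fold against control. Among 39 other G protein coupled receptors and regulators, 3 rose and 4 fell (median log2 difference −0.11). The receptor ADGRG6 fell (log2 difference -1.57, SE 0.08, adjusted p = 7.81e-14) and the lysophosphatidic acid receptor LPAR3 rose (log2 difference 0.61, SE 0.07, adjusted p = 3.09e-07).

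KREMEN2, a co-receptor of the Wnt inhibitor Dickkopf, averaged 5.795 ± 1.31 CPM (control), 6.95 ± 0.679 (knockdown) and 13.7 ± 1.09 (rescue) (SD, n = 3). RASD1, a steroid-inducible Ras-related GTPase, averaged 5.14 ± 1.05 CPM (control), 5.63 ± 1.95 (knockdown) and 10.7 ± 1.48 (rescue). MAPK13, the delta form of p38 kinase, averaged 38.1 ± 4.28 CPM (control), 41.2 ± 3.53 (knockdown) and 74.4 ± 1.45 (rescue). Its neighbour MAPK14, the alpha form, also rose (log2 difference 0.38, SE 0.09, adjusted p = 0.00835), with an adjusted p of 0.0603 without rescue replicate 1. The synaptic genes DLG4, a postsynaptic scaffold (1.76-fold), and GRIN1, a glutamate receptor subunit (1.74-fold), were among the raised genes as well.

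Adhesion and actin genes were few. DSC2, the desmosomal cadherin desmocollin-2, measured 37.8, 32.9 and 28.4 CPM in the control, 39.4, 37.8 and 40.1 in the knockdown and 60.9, 61.3 and 54.2 in the rescue libraries. Control replicate 1 and knockdown replicate 2 were at about one level, the other knockdown libraries lay above all control libraries, and the smaller fold of 1.51-fold was only just inside the threshold. Of 35 other genes of epithelial junctions, 2 rose and 4 fell (median log2 difference 0.02), among them CLDN4, a claudin of tight junctions, and DSG2, the desmoglein partner of desmocollins, which both fell (log2 difference -0.44, SE 0.08, adjusted p = 0.00022, and log2 difference -0.37, SE 0.07, adjusted p = 0.00134). Against control both rose, as DSC2 was higher there too (log2 difference 0.38, SE 0.08, adjusted p = 0.00023, and log2 difference 0.41, SE 0.08, adjusted p = 6.12e-05), and 10 of the 35 rose and 14 fell. DIAPH3, a formin that elongates actin filaments, measured 30.99, 28.5 and 30.5 CPM in the control, 38.9, 30.3 and 37.5 in the knockdown and 62.5, 53.7 and 56.01 in the rescue libraries. Of 41 other actin and motility genes, 6 rose and 5 fell (median log2 difference 0.05), with MYO6, a motor that walks towards minus ends, rising (log2 difference 0.80, SE 0.08, adjusted p = 1.46e-08) and the focal adhesion protein gene ZYX falling (log2 difference -0.43, SE 0.08, adjusted p = 0.000245). FBLIM1, which links filamin to adhesion sites, measured 1.62, 1.16 and 1.96 CPM in the control, 1.798, 1.65 and 0.736 in the knockdown and 4.34, 3.73 and 2.23 in the rescue libraries. Its rescue replicate 3 lay just above the highest control library.

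HFE, the MHC class I-like regulator of iron uptake, measured 1.62, 1.26 and 0.319 CPM in the control, 0.765, 1.203 and 1.84 in the knockdown and 2.51, 3.65 and 3.33 in the rescue libraries. Its counts ran from 7 to 42 in control and from 51 to 92 in rescue, so its fold of 2.49-fold against knockdown and 2.97-fold against control has wide counting error. TAP2, a subunit of the peptide transporter that loads MHC class I, averaged 3.15 ± 0.106 CPM (control), 3.75 ± 0.7297 (knockdown) and 7.03 ± 0.548 (rescue) (SD, n = 3). MR1, which presents vitamin metabolites to T cells, averaged 5.13 ± 0.585 CPM (control), 5.85 ± 1.14 (knockdown) and 8.97 ± 1.29 (rescue). OAS3, an interferon-induced sensor of double-stranded RNA, measured 6.42, 7.22 and 5.38 CPM in the control, 7.65, 5.696 and 7.31 in the knockdown and 13.8, 10.6 and 12.3 in the rescue libraries. It was higher by 1.77-fold against knockdown and 1.93-fold against control. In the interferon list, 7 of 37 other tested genes rose and 1 fell in rescue against knockdown, with a median log2 difference of 0.15. The MHC class I genes HLA-B (log2 difference 0.68, SE 0.08, adjusted p = 1.46e-06) and HLA-C (log2 difference 0.48, SE 0.08, adjusted p = 0.000153) rose, and the helicase gene DHX58 fell (log2 difference -1.88, SE 0.22, adjusted p = 8.55e-07). DHX58 was not called against control (log2 difference 0.22, SE 0.24, adjusted p = 0.515), where 16 of the 37 rose and 3 fell. HLA genes are near-identical copies of each other, so their counts are uncertain. TAP1, the partner of TAP2, looked up after the values of TAP2 were seen, rose (log2 difference 0.36, SE 0.10, adjusted p = 0.0215), but its adjusted p was 0.0545 without knockdown replicate 1, 0.0824 without knockdown replicate 3, 0.0773 without rescue replicate 1 and 0.0643 without rescue replicate 2.

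NUPR1, a small stress-induced chromatin protein, measured 319, 419 and 413 CPM in the control, 380.4, 435 and 416 in the knockdown and 779.7, 819 and 764 in the rescue libraries. The lowest rescue library, at 764 CPM, was far above the highest other library, at 434.5 CPM, and the mean was higher by 1.92-fold against knockdown and 2.05-fold against control. NUPR1 and SLC7A5 both stand in the list of genes of the ATF4 stress response. Of its 28 other tested members, 2 rose and 2 fell (median log2 difference −0.0047), with DDIT4, an inhibitor of mTOR signalling, falling (log2 difference -0.56, SE 0.09, adjusted p = 6.05e-05). Against control the same 28 genes gave 17 that rose and 2 that fell (median 0.27), and DDIT4 rose (log2 difference 1.06, SE 0.09, adjusted p = 1.25e-10). SLC7A5 is also in the list of AHR targets, where 1 of 6 others rose and 1 fell. HSPA1L, a heat shock protein 70 family member, measured 2.88, 4.003 and 2.78 CPM in the control, 5.47, 3.33 and 2.99 in the knockdown and 10.6, 5.83 and 9.52 in the rescue libraries. Its rescue libraries were spread, and replicate 2 lay close to knockdown replicate 1.

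IGF2BP3, an RNA-binding protein that stabilises target messages, measured 4.88, 4.61 and 4.38 CPM in the control, 6.502, 3.73 and 5.38 in the knockdown and 9.75, 10.4 and 11.4 in the rescue libraries. It was higher by 2.02-fold against knockdown and 2.27-fold against control. MAD2L1, a spindle checkpoint protein, averaged 59.7 ± 7.097 CPM (control), 72.2 ± 4.69 (knockdown) and 109.9 ± 9.57 (rescue). SHCBP1, a midbody protein of dividing cells, averaged 21.4 ± 0.7695 CPM (control), 20.9 ± 1.04 (knockdown) and 35.2 ± 2.58 (rescue). PRMT6, an arginine methyltransferase, averaged 12.9 ± 0.666 CPM (control), 11.2 ± 1.65 (knockdown) and 20.3 ± 1.13 (rescue). The remaining genes of the 15 with the largest folds were NRSN2, a neuronal vesicle membrane protein, PLEKHA6, a pleckstrin-domain protein, and FAM110C. NRSN2 measured 20.5, 20.3 and 15.1 CPM in the control, 20.1, 18.1 and 18.9 in the knockdown and 47.9, 42.4 and 41.4 in the rescue libraries, the widest gap of the 3. PLEKHA6 measured 11.8, 8.33 and 10.1 CPM in the control, 10.1, 6.98 and 9.47 in the knockdown and 20.3, 20.7 and 22.8 in the rescue libraries. FAM110C measured 15.7, 12.6 and 15.9 CPM in the control, 16.9, 13.3 and 11.2 in the knockdown and 31.4, 24.2 and 32.8 in the rescue libraries.

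The other raised genes had smaller folds from 1.51-fold to 1.82-fold. They were C3orf18, KIAA0040, RPS6KC1, DQX1, LIMD2, KAZALD1, EDEM3, LSM6, EFCAB5, PTMS and MNX1. EDEM3, which trims mannose from misfolded glycoproteins, averaged 36.3 ± 1.61 CPM (control), 43.9 ± 5.93 (knockdown) and 68.8 ± 4.55 (rescue). PTMS, the acidic nuclear protein parathymosin, averaged 346 ± 29.98 CPM (control), 414 ± 27.5 (knockdown) and 629.9 ± 31.1 (rescue). In both, the knockdown mean lay above the control mean.

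The most lowered gene was CPLANE1, a ciliogenesis and planar polarity effector that is mutated in ciliopathies. It measured 4.65, 5.399 and 6.38 CPM in the control, 5.66, 2.69 and 4.92 in the knockdown and 0.887, 1.03 and 1.32 in the rescue libraries. Its rescue counts were 18, 26 and 35, and every other library had at least 67. The mean was lower by 4.09-fold against knockdown and 5.07-fold against control. INTU, another component of the same ciliary complex looked up afterwards, was not called (log2 difference 0.05, SE 0.11, adjusted p = 0.841). TNFAIP3 followed, the ubiquitin-editing enzyme A20 that limits NF-kB signalling and is itself induced by NF-kB. It measured 9.08, 8.29 and 7.07 CPM in the control, 7.42, 6.06 and 7.13 in the knockdown and 1.72, 3.13 and 3.02 in the rescue libraries. Rescue replicate 1 was the lowest, and the log2 difference was -1.39 (SE 0.22) against knockdown and -1.60 (SE 0.22) against control.

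Of 13 other NF-kB and cytokine genes tested, 0 rose and 2 fell in rescue against knockdown (edgeR; median log2 difference −0.16). None of the 13 was higher at an unadjusted p under 0.05 or with DESeq2, which called 1 lower. Against control, 2 of the 13 rose and 3 fell. NFKB2, which encodes the p100 precursor, fell (log2 difference -0.34, SE 0.07, adjusted p = 0.00139). SOD2, a mitochondrial superoxide dismutase, also fell (log2 difference -0.31, SE 0.09, adjusted p = 0.0329), but its adjusted p was 0.0528 with DESeq2, 0.0519 with library totals only and between 0.0554 and 0.153 without knockdown replicate 1 or 2 or any 1 rescue library. NFKBIA, the classical feedback inhibitor, was not called against knockdown (log2 difference -0.19, SE 0.10, adjusted p = 0.273) and was higher against control (log2 difference 0.68, SE 0.10, adjusted p = 1e-05).

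The promoters of TNFAIP3 and of the lowered gene EMP1 are printed because each holds a motif of an inducible factor that few promoters hold. Sequences are RefSeq windows on GRCh38.p14 from 250 bases before to 50 after the gene's start, read 5′ to 3′ on the gene's strand. That of TNFAIP3 lies at chr6:137867009-137867308, plus strand, and that of EMP1 at chr12:13196476-13196775, plus strand. Capitals mark the searched motifs on either strand. In TNFAIP3 these are the GC box GGGCGG, the E-box CACGTG and, as the run of capitals after it, a consensus NF-kB site read on the other strand. In EMP1 they are the AP-1 motif TGAGTCA and a GC box in reverse, CCGCCC.
TNFAIP3: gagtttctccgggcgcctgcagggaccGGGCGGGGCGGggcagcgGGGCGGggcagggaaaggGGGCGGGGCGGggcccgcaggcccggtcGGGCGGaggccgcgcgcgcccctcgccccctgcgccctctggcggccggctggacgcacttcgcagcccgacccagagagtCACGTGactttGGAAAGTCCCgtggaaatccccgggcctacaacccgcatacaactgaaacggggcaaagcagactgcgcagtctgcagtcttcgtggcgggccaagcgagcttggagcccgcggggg
EMP1: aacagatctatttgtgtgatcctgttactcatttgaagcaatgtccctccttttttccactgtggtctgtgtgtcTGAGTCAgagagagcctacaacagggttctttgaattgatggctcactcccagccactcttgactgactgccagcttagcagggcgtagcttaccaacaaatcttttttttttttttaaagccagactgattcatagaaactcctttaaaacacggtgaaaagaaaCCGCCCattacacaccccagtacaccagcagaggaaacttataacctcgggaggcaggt

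The NF-kB motif stood in 1 of 33 matched promoters of lowered genes, in 0 of 47 of raised genes and in 0.194% of all 27305 promoters. The AP-1 motif, TGACTCA or TGAGTCA, stood in 3 of 33 promoters of lowered genes (EMP1, FCHSD1 and ZBTB20), in 0 of 47 of raised genes and in 4.92% of all promoters. For protein-coding genes that were tested the AP-1 share was 2.89%. The androgen receptor core site AGAACA stood in 8.51% of raised and 6.06% of lowered promoters, and in 8.87% of those of tested protein-coding genes. The ETS motif CCGGAAG stood in 6 raised promoters (12.8%) and 1 lowered promoter (3.03%), against 19.0% of tested protein-coding genes. Shares for the E-box were 10.6% and 12.1%, against 10.1%. A match describes the letters of the window and is not a shown binding site. The median GC content was 62.7% in raised promoters, 68% in lowered ones and 65.3% in those of tested protein-coding genes.

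EMP1, an epithelial membrane protein of the tetraspan family, measured 3.77, 3.91 and 2.51 CPM in the control, 4.21, 2.09 and 2.76 in the knockdown and 1.33, 1.59 and 1.06 in the rescue libraries. Knockdown replicate 2 lay nearest to the rescue libraries, which had 27 to 40 counts. CTSC, the lysosomal protease that activates granule serine proteases, measured 4.62, 6.14 and 7.48 CPM in the control, 6.69, 5.38 and 5.61 in the knockdown and 1.97, 2.78 and 2.76 in the rescue libraries. Its mean was lower by 2.36-fold against knockdown and 2.43-fold against control. FBLN2, an extracellular matrix glycoprotein, measured 3.12, 2.42 and 4.38 CPM in the control, 3.21, 3.21 and 3.26 in the knockdown and 2.07, 1.98 and 1.17 in the rescue libraries. Of 43 other integrin and matrix genes, 6 rose and 5 fell (median log2 difference 0.02), FN1, the gene of fibronectin, among those that fell (log2 difference -0.89, SE 0.10, adjusted p = 5.22e-07). TMEM51, a membrane protein of little known function, measured 7.19, 7.45 and 8.57 CPM in the control, 7.69, 7.94 and 6.71 in the knockdown and 5.52, 3.45 and 3.21 in the rescue libraries. Its rescue replicate 1 was well above the other rescue libraries.

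**Figure D3:**
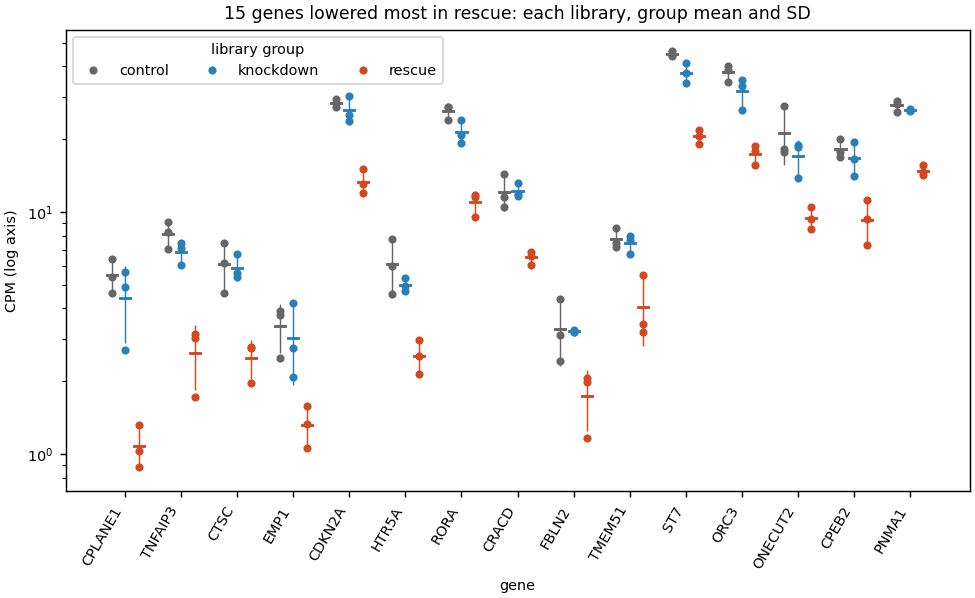
Points are the CPM of single libraries on a log axis for the 15 lowered genes with the largest smaller fold, with means (horizontal marks) and 1 SD (vertical lines) of 3 libraries. All rescue points lie below the control and knockdown points of the same gene, with CPLANE1 lowest near 1 CPM and FBLN2 and TMEM51 with 1 rescue library apart from the others.

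The next lowered genes are set together by their known roles in cell cycle arrest, replication and chromosome topology, with ELP3 added. A shared theme was not tested, and neither cell cycle list held a member. Of 28 tested G2/M genes, 9 rose and 0 fell in rescue against knockdown (edgeR). Of 29 tested G1/S genes, 2 rose and 1 fell, where 5.2% of all genes rose and 4.88% fell. CDKN2A, the locus of the p16 and p14ARF inhibitors, measured 28.2, 27.1 and 29.4 CPM in the control, 25.1, 23.8 and 30.2 in the knockdown and 15.1, 13.1 and 11.98 in the rescue libraries. The rescue libraries were about evenly below, by 1.97-fold against knockdown and 2.11-fold against control. ORC3, a subunit of the origin recognition complex, measured 38.7, 40.2 and 34.3 CPM in the control, 34.96, 33.01 and 26.5 in the knockdown and 15.7, 17.8 and 18.7 in the rescue libraries. TOP2B, the DNA topoisomerase form also made in non-dividing cells, averaged 144 ± 14.3 CPM (control), 120.2 ± 11.1 (knockdown) and 76.5 ± 1.43 (rescue) (SD, n = 3). Its paralogue TOP2A of dividing cells, looked up afterwards, rose (log2 difference 0.29, SE 0.07, adjusted p = 0.00796), with an adjusted p of 0.0872 without rescue replicate 1. ELP3, the catalytic subunit of the Elongator tRNA-modifying complex, averaged 32.8 ± 0.508 CPM (control), 33.3 ± 2.44 (knockdown) and 20.7 ± 1.43 (rescue). BTG3, an antiproliferative gene, measured 79.6, 105 and 104 CPM in the control, 83.5, 96.5 and 83.1 in the knockdown and 56.6, 62.7 and 52.99 in the rescue libraries, just inside the threshold.

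Transcription and RNA regulators were the next lowered group. RORA, a nuclear receptor of the circadian clock, measured 27.3, 23.9 and 27.1 CPM in the control, 23.98, 20.8 and 19.2 in the knockdown and 11.5, 9.56 and 11.8 in the rescue libraries. The rescue libraries were lower by 1.95-fold against knockdown and 2.38-fold against control. Of 27 other nuclear receptors, 1 rose and 2 fell (0 and 2 with DESeq2, 5 higher at an unadjusted p under 0.05), and of 16 other clock genes, 0 rose and 4 fell (edgeR). At an unadjusted p under 0.05, 4 clock genes were higher, and 0 were called higher with DESeq2. Against control, 10 of the 16 clock genes rose and 3 fell in rescue (median log2 difference 0.32), and BHLHE40 (log2 difference 0.43, SE 0.08, adjusted p = 3.79e-05), NR1D1 (log2 difference 0.36, SE 0.08, adjusted p = 0.00103) and PER1 (log2 difference 0.73, SE 0.09, adjusted p = 2.14e-07), which fell against knockdown, were among the 10. The PER1 call against knockdown was lost without knockdown replicate 2 or 3 or rescue replicate 1 or 2 (edgeR adjusted p from 0.0639 to 0.113). That of NR1D1 was lost without knockdown replicate 2 (edgeR adjusted p = 0.0867) or rescue replicate 3 (0.0685). NFIL3, a clock repressor, fell against both knockdown (log2 difference -0.50, SE 0.10, adjusted p = 0.000671) and control (log2 difference -0.39, SE 0.10, adjusted p = 0.00207), as did the retinoic acid receptor RARG against knockdown (log2 difference -0.55, SE 0.12, adjusted p = 0.00246). ONECUT2, a homeobox factor of liver and neuroendocrine lineages, measured 27.5, 17.7 and 18.3 CPM in the control, 18.5, 13.8 and 18.9 in the knockdown and 9.36, 8.53 and 10.5 in the rescue libraries. Control replicate 1 stood apart on the high side, and the smaller fold was 1.802-fold. Of 51 other homeobox and lineage factors, 6 rose and 7 fell (median log2 difference 0.03), for example HOXA10, which rose (log2 difference 0.76, SE 0.16, adjusted p = 0.00127), and ELF3, an epithelial ETS factor, which fell (log2 difference -0.89, SE 0.07, adjusted p = 1.05e-09). CPEB2, a regulator of message polyadenylation, measured 19.96, 17.6 and 16.9 CPM in the control, 19.4, 16.5 and 14.1 in the knockdown and 7.34, 9.403 and 11.2 in the rescue libraries. PNMA1, a neuronal antigen of retroviral origin, measured 28.9, 27.97 and 25.99 CPM in the control, 26.8, 26.4 and 26.2 in the knockdown and 14.2, 15.7 and 14.6 in the rescue libraries, with tight groups.

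Neuronal and signalling genes completed the lowered set. HTR5A, a serotonin receptor, measured 7.77, 4.61 and 5.97 CPM in the control, 4.704, 5.34 and 4.97 in the knockdown and 2.96, 2.54 and 2.15 in the rescue libraries. CRACD, an inhibitor of actin capping, measured 14.4, 11.5 and 10.5 CPM in the control, 13.2, 11.9 and 11.7 in the knockdown and 6.85, 6.03 and 6.61 in the rescue libraries. ST7, a candidate tumour suppressor, measured 46.2, 44.3 and 44.2 CPM in the control, 41.1, 37.6 and 34.2 in the knockdown and 19.1, 21.9 and 20.7 in the rescue libraries. All 3 had rescue libraries close to each other. ST6GAL1, which adds sialic acid to N-glycans, measured 9.92, 6.24 and 8.53 CPM in the control, 7.96, 8.22 and 8.92 in the knockdown and 4.93, 5.87 and 5.102 in the rescue libraries. Control replicate 2 came within 1.06 times of the highest rescue library. Of 39 other glycosyltransferase and mucin genes, 2 rose and 2 fell (median log2 difference 0.15), GCNT2, a branching enzyme, rising against knockdown (log2 difference 1.34, SE 0.23, adjusted p = 0.000169) and not called against control (log2 difference 0.19, SE 0.22, adjusted p = 0.521). Lower too were SWAP70, an actin and Rac regulator (1.75-fold), SH3BP5, a Rab11 exchange factor (1.71-fold), BMP8B, a bone morphogenetic protein (1.704-fold), and NOVA1, a neuronal splicing factor (1.61-fold). The remaining lowered genes were NEURL3, FCHSD1, MREG, ODAM, RNF223, SHF, MROH1, STAC3, ICA1L, LRRC37B, ZBTB20, GNG4, PRELID3A, PUM3 and C14orf28, with smaller folds from 1.53-fold to 1.75-fold. Of 51 lists written from general knowledge, 15 held a member, and 87 of the 103 members were in none. Rescue against control gave other counts for the lists: 5 rose and 11 fell of the growth factor genes, 10 and 19 of the guidance genes, 10 and 14 of the integrin and matrix genes, and 9 and 19 of the actin genes. For the remaining lists these were 6 and 17 of the G protein coupled receptors, 5 and 14 of the glycosyltransferases, 18 and 17 of the homeobox factors, 7 and 7 of the nuclear receptors, and 2 and 1 of the AHR targets.

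Chromosomal position played no part in the choice of members, and this description was chosen after the values were seen. Chromosome 13 held 11 of the 63 raised genes and 0 lowered ones. These were 10.1% of its 109 genes that met the floor and the window, against 52 of 6603 (0.788%) on all other chromosomes, where the highest share was 1.89% (chromosome 17). The 272 other tested genes of chromosome 13 had a median log2 difference of 0.21 in rescue against knockdown and 0.25 in rescue against control, and of 0.06 in knockdown against control. On the other chromosomes the median in rescue against knockdown lay between −0.14 and 0.11. Called higher in rescue against knockdown were 64 of the 272 (23.5%, against 5.2% of all genes), and 5 were called lower. The shift was thus shared by genes of chromosome 13 that the rule did not choose.

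**Figure D4:**
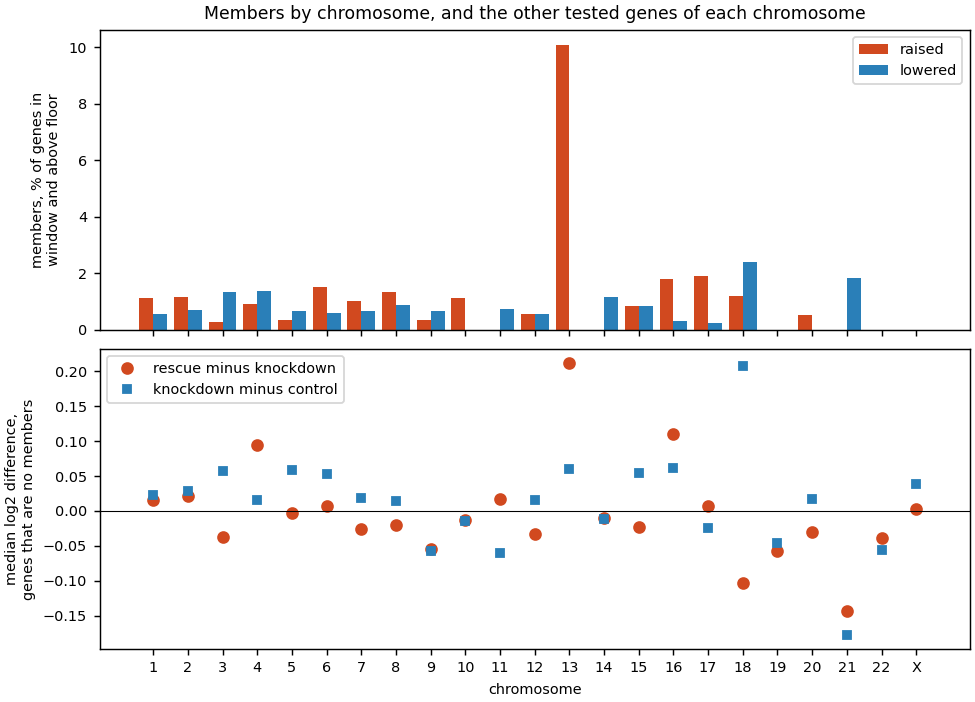
The upper panel gives, for each chromosome, raised and lowered members as a percentage of its genes that met the floor and the window. The lower panel gives the median log2 difference of the chromosome's other tested genes, in rescue minus knockdown (circles) and knockdown minus control (squares). Chromosome 13 stands highest in both the raised share (10.1%) and the circles (0.21).

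Within chromosome 13, 8 raised genes lay between BRCA2 and MED4, a stretch whose ends were also chosen after the values were seen. They were STARD13, a START-domain protein, NHLRC3, the cullin-3 adaptors KBTBD6 and KBTBD7, NUFIP1, which binds the fragile X protein, GTF2F2, a subunit of the general factor TFIIF, SLC25A30 and ZC3H13, a part of the RNA m6A writer complex. NUFIP1 averaged 4.87 ± 0.171 CPM (control), 4.86 ± 1.06 (knockdown) and 9.13 ± 0.552 (rescue) (SD, n = 3). KBTBD6 averaged 22.8 ± 0.946 CPM (control), 27.6 ± 2.45 (knockdown) and 45.1 ± 2.98 (rescue). ZC3H13 averaged 63.99 ± 8.199 CPM (control), 65.3 ± 7.32 (knockdown) and 99.1 ± 8.499 (rescue). Their smaller folds were 1.87-fold, 1.63-fold and 1.52-fold. Of the 60 other tested genes in the stretch, 54 had a positive log2 difference, 21 (35%) rose and 0 fell in rescue against knockdown, with a median of 0.38 (edgeR). None of the 60 was lower at an unadjusted p under 0.05 or with DESeq2. Without rescue replicate 1, 13 rose. The same 60 genes had medians of 0.65 in rescue against control and 0.21 in knockdown against control. PDS5B, a cohesin regulator next to STARD13, rose (log2 difference 0.53, SE 0.08, adjusted p = 6.33e-05), as did PROSER1 (log2 difference 0.53, SE 0.11, adjusted p = 0.0012) and COG6, a Golgi tethering subunit (log2 difference 0.45, SE 0.10, adjusted p = 0.00298), on either side of NHLRC3. LCP1, the actin bundler L-plastin next to ZC3H13, rose in rescue as well: 19.3 ± 1.85 CPM (control), 44.8 ± 2.49 (knockdown) and 89.99 ± 7.11 (rescue) (log2 difference 0.98, SE 0.09, adjusted p = 1.06e-08). The other members on chromosome 13 were MIPEP, DIAPH3 and ABHD13.

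**Figure D5:**
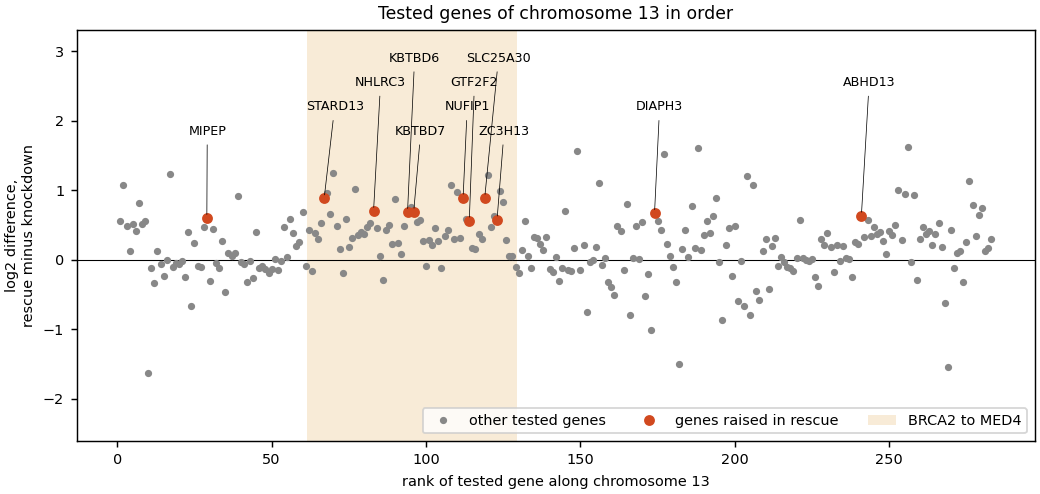
Each point is a tested gene of chromosome 13, placed by its rank along the chromosome, with its log2 difference in rescue minus knockdown. The 11 raised members are labelled and the stretch from BRCA2 to MED4 is shaded; 54 of its 60 other genes lie above 0.

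The promoters of KBTBD6 (chr13:41132753-41133052, minus strand) and NUFIP1 (chr13:44989422-44989721, minus strand) are shown as raised genes of this stretch, in the same RefSeq windows on GRCh38.p14. Capitals mark a CCAAT box in reverse, ATTGG, in KBTBD6 and the GC box GGGCGG in NUFIP1. The windows share no searched motif. GC boxes stood in 65.96% of raised promoters, 69.8% of those of tested protein-coding genes and 44.6% of all promoters, and CCAAT boxes in 36.2%, 36.6% and 35.7%.
KBTBD6: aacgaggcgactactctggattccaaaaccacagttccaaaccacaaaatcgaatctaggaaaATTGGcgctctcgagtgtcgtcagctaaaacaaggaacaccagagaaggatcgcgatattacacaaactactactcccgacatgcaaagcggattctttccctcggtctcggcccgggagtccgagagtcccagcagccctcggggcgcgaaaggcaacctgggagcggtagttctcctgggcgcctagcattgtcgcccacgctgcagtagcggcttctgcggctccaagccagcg
NUFIP1: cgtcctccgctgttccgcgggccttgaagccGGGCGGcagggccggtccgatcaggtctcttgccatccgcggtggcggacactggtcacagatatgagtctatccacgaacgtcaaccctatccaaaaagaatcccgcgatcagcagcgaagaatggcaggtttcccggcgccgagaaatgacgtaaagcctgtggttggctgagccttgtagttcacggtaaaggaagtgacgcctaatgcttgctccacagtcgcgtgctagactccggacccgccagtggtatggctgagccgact

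Stretches on chromosome 6 accompanied 2 further members. Around ORC3, from SMIM8 to MAP3K5, 39 of 150 other tested genes (26%) fell in rescue against knockdown, where 4.88% of all genes did, and 0 rose (edgeR), with a median log2 difference of −0.27. At an unadjusted p under 0.05, 1 of the 150 was higher, and 0 were called higher with DESeq2. The number was 24 without knockdown replicate 2 and also without rescue replicate 3. Around TAP2, from STK19 to KIFC1, 8 of 45 others rose and 0 fell with edgeR (median 0.23), and none was lower at an unadjusted p under 0.05 or with DESeq2. On chromosome 16, which held 6 raised genes and 1 lowered gene, 82 of 973 others rose (8.43%) and 25 fell. In rescue against knockdown, a median above 0.2 among up to 20 nearest tested non-members was found for 19 of 63 raised genes (30.2%). It was found for 4.98% of 12993 other protein-coding genes. All members on chromosome 13 except MIPEP and DIAPH3 were among the 19, and the windows of close members share genes. For 4 of 40 lowered genes (ORC3, ST7, TNFAIP3 and BTG3) it was below −0.2, against 3.98%. SLC22A3 and DSC2 were raised within surroundings that were lower against knockdown (medians −0.27 and −0.22). Against control these medians were −0.20 and 0.23.

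The nearest tested gene on each side of each member, members left out, gave a closer view. Of 122 neighbours of raised genes, 20 rose (16.4%, against 5.2%) and 3 fell, 1 with DESeq2. Off chromosome 13, 12 of 102 rose (11.8%). Of 80 neighbours of lowered genes, 0 rose and 14 fell (17.5%, against 4.88%), and 9 fell without knockdown replicate 2. At an unadjusted p under 0.05, 2 of the 80 were higher, and 0 were called higher with DESeq2. Some neighbours overlap a member's exons, and the shares above include them. Without those, 13 neighbours of raised genes rose and 9 of lowered genes fell. The neighbours left were not counted, so these 2 numbers cannot be set beside the shares of all genes. CXADR, a cell adhesion receptor beside BTG3, fell (log2 difference -0.39, SE 0.08, adjusted p = 0.00163), and ANXA5, a phospholipid-binding annexin beside MAD2L1, rose (log2 difference 0.35, SE 0.08, adjusted p = 0.0044).

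Exons of 35 members overlap those of another tested gene, in 34 cases on the opposite strand. Whether counting used the strand is not stated, so reads from the shared bases cannot be assigned. These bases made up 0.0743% to 64.7% of a member's exon bases, with a median of 5.48%. Of 26 overlapping non-member partners of 22 raised genes, 8 rose and 0 fell in rescue against knockdown (edgeR, median log2 difference 0.35). Of 15 partners of 13 lowered genes, 0 rose and 5 fell (edgeR, median −0.50). Over all genes, 5.2% rose and 4.88% fell. In neither set did an unadjusted p under 0.05 or DESeq2 give a partner in the other direction. Partners share bases with members chosen for their direction, so a partner's count may hold reads of the member. The counts of partners are therefore a description and not separate evidence on the members. BEST1, a retinal chloride channel, overlaps the ferritin heavy chain gene FTH1. BEST1 had 5430, 5444 and 5198 CPM in the control, 5133, 5666 and 4522 in the knockdown and 3352, 3538 and 3293 in the rescue libraries. FTH1 had 8132 ± 119.9 CPM (control), 7542 ± 597 (knockdown) and 5263 ± 167 (rescue). The ratio of BEST1 to FTH1 stayed between 0.636 and 0.697 in all 9 libraries, and FTH1 itself fell (log2 difference -0.54, SE 0.09, adjusted p = 6.71e-05). The BEST1 value is therefore uncertain as a level of BEST1 RNA. By the share of overlap, HSD3B7 (64.7% of its exon bases under another gene), SH3BP5 (47.5%), PDK2 (38.5%) and SLC24A5 (32.9%) were uncertain too. Unlike FTH1, the partners of HSD3B7 and PDK2 were less abundant than the member (in rescue 14.28 against 29.65 CPM and 12.94 against 28.84 CPM). Some members with a smaller share lie under a more abundant gene. One is KREMEN2 (13.8%), whose partner PKMYT1 was called higher and had 44.8 CPM in rescue, against 13.7 CPM for KREMEN2. HTR5A-AS1, the antisense partner of HTR5A, fell with it: 4.48 ± 0.642 CPM (control), 5.05 ± 1.09 (knockdown) and 2.02 ± 0.121 (rescue) (log2 difference -1.34, SE 0.24, adjusted p = 0.000367).

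Close copies are a second source of uncertain counts. HPR measured 24.3, 26.5 and 21.02 CPM in the control, 21.9, 24.1 and 23.3 in the knockdown and 13.5, 12.8 and 15.2 in the rescue libraries, while its near-identical copy HP had only 2 to 11 counts per library and was not tested. TTC30B was higher by 1.56-fold, and its near-identical copy TTC30A was not called in rescue against knockdown (log2 difference 0.13, SE 0.13, adjusted p = 0.627) but was higher against control (log2 difference 0.78, SE 0.13, adjusted p = 3.12e-05). Near the threshold, the smaller fold was 1.503 for the raised GTF2F2 and 1.505 for DSC2, and just outside it were SRRM3 (1.498) and PLEKHG2 (1.496). For lowered genes it was 1.505 for BEST1 and 1.53 for BTG3, with NMNAT1 (1.493) and EIF4E3 (1.482) just outside. GTF2F2 measured 13.7, 16.6 and 15.5 CPM in the control, 18.4, 18.9 and 17.9 in the knockdown and 29.6, 30.9 and 22.6 in the rescue libraries, with rescue replicate 3 apart on the low side.

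Genes outside the protein-coding class met the same conditions in 30 cases, 20 raised and 10 lowered. They include antisense RNAs of members, HTR5A-AS1 and BTG3-AS1, and on chromosome 13 the raised GAS6-AS1, at 29.9 ± 3.52 CPM (control), 30.8 ± 4.396 (knockdown) and 54.1 ± 1.31 (rescue), and DLEU2, at 8.65 ± 2.26, 9.18 ± 0.544 and 15.1 ± 1.86 CPM.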

How the data were processed

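RNA of 9 LNCaP libraries was sequenced, 3 each of control, knockdown and rescue. The authors deposited raw read counts, a table for each library. The submitters' processing notes name hg19 and the tools HISAT2, HTSeq, cutadapt and FastQC; no source used here gives their versions, the library kit or the strand setting. Summary rows entered neither library sizes nor tests: reads in no feature made up 48.8% to 50.7% of a table, ambiguous reads 2.26% to 2.67% and reads without a unique alignment 5.26% to 7.62%. Of 60880 gene identifiers, 56414 matched the symbol table, 444 GENCODE v29 only and 4022 none. GENCODE v29 is on another build and served for gene class, order and overlap only.

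CPM, on which members were chosen, is the count scaled to 1000000 gene counts. Counts were fitted in edgeR 4.0.16 (R 4.3.3) with TMM scaling, filterByExpr with a minimum count of 10 and a robust quasi-likelihood model over all 9 libraries with 1 mean per group. The 3 contrasts were tested over 18389 genes with Benjamini-Hochberg adjustment, and genes under 0.05 were called. DESeq2 1.42.0 was an alternative. The scripts were tested on simulated data. Gene counts per library were 20300744 to 26459528.

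Members and gene lists were chosen with earlier results of these data known. Values in every library are given for the 15 raised and 15 lowered genes with the largest smaller fold, members of a list and those nearest the threshold. Other genes named are the up to 6 of each such list with the smallest adjusted p in rescue against knockdown, called neighbours, UGT2B28 and genes said to be looked up afterwards. Not all are named. Promoters were matched in RefSeq for 47 raised and 33 lowered genes.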

Additional observations from a re-analysis of the deposited data

How the results depend on the processing

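The counts of called genes over each comparison, over all lists together and by position (chromosome 13, BRCA2 to MED4, SMIM8 to MAP3K5, neighbours in the members' direction) moved by at most 1.5 times with DESeq2, other size factors, library totals, no low-count filter or only the 6 libraries compared. Leaving out 1 library gave 1196 to 2364 called genes in rescue against knockdown (638 to 1220 higher, 547 to 1144 lower), 5809 to 6995 in rescue against control (2915 to 3555 higher, 2894 to 3456 lower) and 4858 to 5788 in knockdown against control (2447 to 2957 higher, 2411 to 2855 lower). It gave 54 to 74 raised and 35 to 50 lowered members, 80 to 96 of the 103 being shared, 28 to 45 genes outside the protein-coding class, 771 to 927 genes with control apart and 54 to 76 with knockdown apart. Neighbours called numbered 14 to 24 of raised and 9 to 16 of lowered genes, list genes 33 to 59 higher and 36 to 62 lower, and position counts 44 to 71 on chromosome 13, 13 to 24 from BRCA2 to MED4 and 24 to 43 from SMIM8 to MAP3K5.

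A fold of 2 left 15 raised and 4 lowered members, 9 genes of other classes, 243 with control apart and 13 with knockdown apart. A fold of 1.4 gave 108, 72 and 55, and 104 with knockdown apart. A window from 0.9 to about its inverse left 29 raised, 22 lowered, 15 of other classes, 475 with control apart and 30 with knockdown apart. A floor of 10 CPM left 20 lowered, 14 of other classes and 29 with knockdown apart, and a floor of 1 CPM gave 70 of other classes. TMM-adjusted sizes gave 104 members, 94 of them shared, and DESeq2 size factors 106, 98 shared. Members that overlap no tested gene numbered 41 raised and 27 lowered. Neighbours outside the members' exons that were called in the members' direction numbered 13 (raised) and 9 (lowered). Neighbours of raised genes off chromosome 13 that were called higher numbered 12. These sets and the position counts were added after the data were seen. The log2 differences of members kept their sign in all settings, which the choice of members made nearly certain beforehand. Of these values, 19 of 3090 moved by more than 1 SD. Of the values of named other genes, 237 lost and 46 gained a call, and 0 reversed.

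Whether the replicate numbers pair the samples could not be settled. Deviations of same-numbered libraries correlated from −0.023 to 0.135, with 2 of 9 above 0.1. Those of other-numbered libraries correlated from −0.129 to 0.119, with 1 of 18 above 0.1. Of 9 libraries, 5 matched their own number best. With the replicate block, 2319 genes were called in rescue against knockdown, 7363 in rescue against control and 6348 in knockdown against control. Without it these numbers were 1854, 6946 and 5899.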
